A study of Caenorhabditis elegans with 93 samples.

Results

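Lineage C was 1 of 3 lines of the laboratory strain N2 of Caenorhabditis elegans that were propagated side by side for 20 generations at 20 °C on plates seeded with Escherichia coli OP50, with no further treatment. In every generation 2 hermaphrodites founded the next one, and embryos were recovered by bleaching gravid worms. Poly(A)-selected RNA was sequenced from 10 libraries of lineage C, of 31 RNA libraries and 93 libraries of all kinds, and the members described here are the 9 lineage C libraries of generations 2 to 20. These were set against the 10 libraries of lineage A and the 9 libraries of lineage B from the same generations, and the generation 0 library of each lineage was kept apart to show what the lines looked like at the start. RNA of generation 14 of lineage C and generation 4 of lineage B was not sequenced, per the study's methods because the yield was too low. A lineage is 1 line sampled again and again, so the libraries of a lineage are serial samples and not independent lines. The p-values given here therefore measure the spread between serial libraries, and an effect of lineage C cannot be told apart from any condition that its plates or extractions shared.

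Such a bottleneck lets heritable changes drift in a line whether or not they are harmful, both changes in DNA and changes in chromatin or small RNAs. In C. elegans the 22G-RNAs are small RNAs that RNA-dependent RNA polymerases make on an mRNA template, antisense to it. They are bound by worm Argonaute proteins, some of which silence the target gene while the Argonaute CSR-1 is linked to genes that stay expressed, and their levels can be passed from parent to offspring.

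The lineage C RNA libraries held 42039288 to 48011588 reads over genes, with a median of 44744515, against 42709639 to 48158015 reads, with a median of 46296520, in lineages A and B. In 4 libraries (generations 12 and 18 of lineage C, generation 16 of lineage A and generation 10 of lineage B) under 18% of the listed genes had no read, against a median of 21.6% over all 28 later libraries, and main results are also given without them. A stage score, the mean log2 level of late muscle and cuticle genes minus that of maternal regulators, ran from 0.08 to 0.92 in lineage C, from 0.24 to 0.88 in lineage A and from 0.31 to 0.79 in lineage B, so that lineage C spanned the widest range. Generation 2 of lineage C had the lowest score of all 28 libraries and stood apart from the rest, with a median correlation of 0.9453 with the other libraries, against 0.969 to 0.989 for the others. Its part in the results was not tested beyond leaving it out, as given below. Summed normalised counts of late embryo muscle genes ran from 414800 to 616200 in lineage C and from 353400 to 638100 in lineages A and B, and those of the adult vitellogenins from 2284 to 3042 in lineage C and from 1901 to 2901 in lineages A and B. Most of the vitellogenin sum came from 1 entry, vit-1, with means of 2421.5 in lineage C, 2372.2 in lineage A and 2388.2 in lineage B. The vit-1 entry spans chromosome X from 7727889 to 7751701, and reads of any other gene in that span would be counted with it. The vitellogenin sum is therefore not surely a measure of adult material. The vit-3 entry averaged 52.9 in lineage C.

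The first question was which genes lineage C expressed at another level than lineages A and B over the whole of generations 2 to 20. Of 16737 gene entries with a mean normalised read count of at least 10, 11 differed from the mean of lineages A and B (0.0657% of those tested, limma with a block for generation, Benjamini-Hochberg adjusted p under 0.05). Of these, 9 were higher in lineage C (0.0538%) and 2 were lower (0.0119%). A pair of entries named F07B7.2 and W09B7.2 have the same position and the same values in the table, so that the 11 entries are 10 positions. Without the 4 libraries with few silent genes 6 entries were called, all 6 among the 11, and without generation 2 of lineage C 10 were called, 9 of them among the 11. When lineages A and B were each tested alone, 4 entries at 3 positions differed from both (0.0239%), F07B7.2 with its duplicate entry and rnh-1.3 higher (0.0179%) and nyn-1 lower (0.00597%). The same fit called 1 gene for lineage A (0.00597%) and 7 genes for lineage B (0.0418%) against the mean of the other lineages. At an unadjusted p under 0.05 the comparison held 14.4% of genes for lineage C (7.22% higher and 7.16% lower), 5.83% for lineage A and 11.1% for lineage B. The median difference over all genes was 0.01 on the log2 scale. All differences are of log2(normalised count + 1), lineage C minus the mean of lineages A and B, which understates the change of genes with low counts. The samples are whole embryos, so that fewer cells of a type and less RNA per cell cannot be told apart. No strand setting is stated for the counting, and reads of overlapping genes cannot be told apart either.

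The largest loss of mRNA in lineage C was that of nyn-1, which encodes a protein with an NYN domain, a fold found in ribonucleases. The gene lies on chromosome IV from 13685076 to 13687016 on the minus strand (WBcel235), and is annotated as protein coding. Its normalised count ranged from 89.9 to 346 with a median of 115 in lineage C, against 336 to 482.7 with a median of 440 in lineage A and 356 to 494 with a median of 405 in lineage B. The log2 difference was -1.77 ± 0.13 (SE, n = 9 libraries against 19), with an adjusted p of 9.85e-08 by limma, and lineage C was lower than lineage A by -1.82 ± 0.15 and than lineage B by -1.73 ± 0.16. In generation 0, nyn-1 stood at 771 in lineage C, against 422 in lineage A and 453 in lineage B. In generation 2 it was 346 in lineage C, against 483 in lineage A and 453 in lineage B. The lineage C value was just above the lowest of all later libraries of lineages A and B, 336. From generation 4 on, all 8 libraries of lineage C lay between 89.9 and 131, below every library of lineages A and B, and the log2 difference of single generations ran from -2.37 in generation 4 to -1.47 in generation 12 and -2.12 in generation 20. The level of lineage C was thus still low in the last generation sampled.

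The genes beside nyn-1 were not called. oac-48, the nearest tested gene at lower coordinates, differed by -0.30 ± 0.12 (adjusted p = 0.29 by limma), and T23G4.2, the nearest at higher coordinates, by -0.03 ± 0.13 (adjusted p = 0.929). No gene entry in the table overlaps nyn-1. One element of open chromatin lies within 2000 bases of the gene, at 13687172 to 13687321, just beyond the higher coordinate, which is the 5′ end of this minus-strand gene. Its mean normalised ATAC-seq count was 19.8 in lineage C, 22.6 in lineage A and 19.7 in lineage B, a log2 difference of -0.11 ± 0.33 (adjusted p = 0.924 by limma), so that no difference was detectable there at this depth.

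F07B7.2 was higher in lineage C, and it is the single position at which all 9 lineage C libraries lay above all 19 libraries of lineages A and B (0.0119% of entries, this pair alone, had no overlap). It lies on chromosome V from 8870259 to 8872003 on the plus strand, near histone genes such as his-28, and is annotated as protein coding. The counts were 56.5 to 166 with a median of 98.95 in lineage C, 21.97 to 53.6 with a median of 29.8 in lineage A and 12.5 to 46.6 with a median of 19.01 in lineage B. The log2 difference was 1.86 ± 0.18 (adjusted p = 3.83e-06 by limma), with 1.53 ± 0.21 against lineage A and 2.18 ± 0.21 against lineage B. In generation 0 the lines were close, at 40.4 in lineage C, 41.6 in lineage A and 46.4 in lineage B. By generation 2 the count was 81.8 in lineage C, against 27.05 in lineage A and 46.6 in lineage B, and it peaked at 166 in generation 6. Lineages A and B came nearest in generation 18, with 56.5 in lineage C and 53.6 in lineage A. RefSeq (WBcel235) gives the name W09B7.2 to a second gene of equal length, 1745 bases, from 8828165 to 8829909 on the same chromosome, whereas Ensembl names both genes F07B7.2. Reads could be shared between them, so that the value belongs to the pair and not surely to either. The nearest neighbour, W09B7.1, differed by 0.59 ± 0.24 (adjusted p = 0.303) at a low mean count of 11.6.

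rnh-1.3, a member of the RNase H family of enzymes that cut the RNA strand of RNA-DNA hybrids, was also higher in lineage C. It lies on chromosome I from 9710089 to 9710745 on the minus strand. Its counts were 70.7 to 444.1 with a median of 137 in lineage C, 14.2 to 316 with a median of 39.4 in lineage A and 21.2 to 280 with a median of 45.6 in lineage B. The wide ranges came from generation 2, in which rnh-1.3 was high in every line, at 444.1 in lineage C, 316 in lineage A and 280 in lineage B. From generation 4 on the groups did not overlap, with 70.7 to 237 in lineage C, 14.2 to 63.1 in lineage A and 21.2 to 61.4 in lineage B. The log2 difference was 1.65 ± 0.18 (adjusted p = 1.29e-05 by limma). In generation 0 the counts were 36.1 in lineage C, 28.6 in lineage A and 37.7 in lineage B. The difference of single generations was 0.58 in generation 2, 3.14 in generation 12 and 1.253 in generation 20. With no block for generation the adjusted p of rnh-1.3 was 0.247, and with lineage A as the sole comparison 0.071. Its next gene, fce-1, differed by -0.01 ± 0.04 (adjusted p = 0.878), and the 2 elements of open chromatin within 2000 bases differed by -0.18 ± 0.10 and -0.18 ± 0.19.

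**Figure D1:**
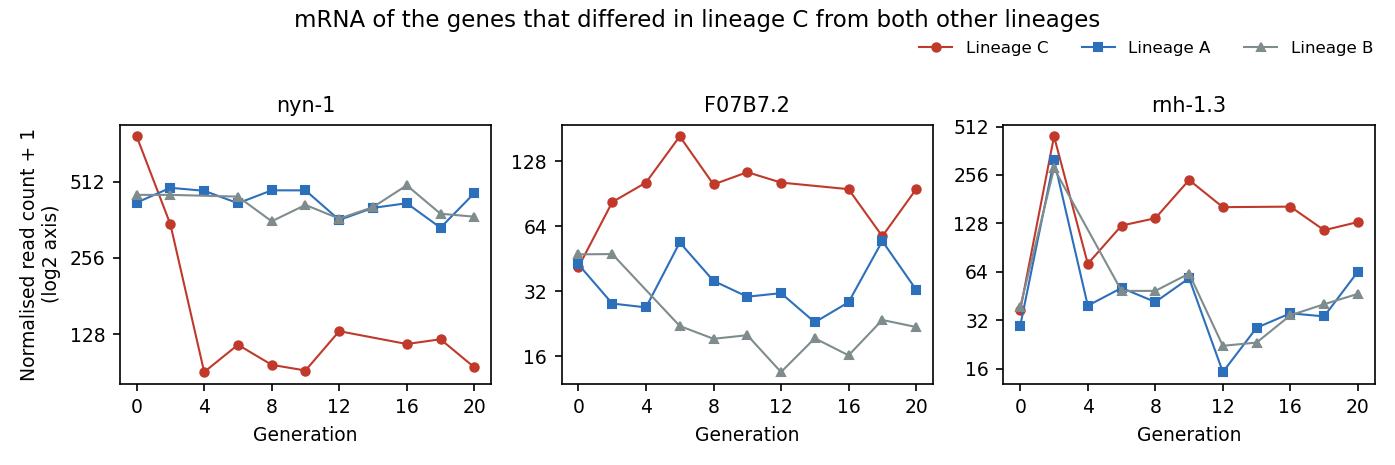
Normalised read count plus 1 (log2 axis) against generation for nyn-1, F07B7.2 and rnh-1.3, with 1 point for each library and 1 line for each lineage; points have no error bars because each is 1 library. nyn-1 of lineage C stands at 346 in generation 2 and between 89.9 and 131 from generation 4 on, whereas F07B7.2 and rnh-1.3 start near the other lineages in generation 0 and lie above them later.

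These 3 positions kept their call whichever of the 28 later libraries was left out, with log2 differences from -1.95 to -1.71 for nyn-1, from 1.80 to 2.01 for F07B7.2 and from 1.46 to 1.79 for rnh-1.3. They also kept it without the 4 libraries with few silent genes, at -1.86, 1.96 and 1.38 (adjusted p up to 0.00089 by limma), and without generation 2 of every lineage, at -1.95, 1.95 and 1.79. In generations 2 to 10 alone the differences were -1.76, 1.94 and 1.295, and in generations 12 to 20 alone they were -1.78, 1.74 and 2.07, each with an adjusted p of 0.045 or less against the mean. A test of the change between the earlier and the later generations called no gene (0 of 16737 by limma, with 1005 at an unadjusted p under 0.05).

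The other 7 positions differed from the mean of lineages A and B but not from each lineage in turn, and their names are given because the count is small and not by the rule for named genes. Y49E10.37, a non-coding RNA on chromosome III from 12383029 to 12383273, had 77.4 to 192 with a median of 117 in lineage C, 35.7 to 63.5 with a median of 57.7 in lineage A and 35.7 to 101.99 with a median of 59.4 in lineage B. The log2 difference was 1.01 ± 0.16 (adjusted p = 0.0043 by limma). It was already apart at the start, with 127 in lineage C, 48.9 in lineage A and 77.4 in lineage B in generation 0. In the table an entry named Y48A6C.7 overlaps it, a name that the reference annotation gives to a gene elsewhere on chromosome III.

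Y102A5C.36, a protein-coding gene on chromosome V from 16926920 to 16927445, had 27.2 to 74.0 with a median of 48.7 in lineage C, 10.5 to 40.4 with a median of 19.03 in lineage A and 11.6 to 33.7 with a median of 13.5 in lineage B. The log2 difference was 1.296 ± 0.20 (adjusted p = 0.00449 by limma). Without the 4 libraries with few silent genes the difference was 1.304 and the call was lost (adjusted p = 0.141). In 7 of 9 lineage C libraries the count was above every library of lineages A and B.

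ZC190.10, on chromosome V from 8692198 to 8696312, had the largest difference, 2.25 ± 0.38 (adjusted p = 0.019 by limma), but the lineages did not keep the same distance. Its counts were 48.003 to 108 with a median of 56.3 in lineage C, 3.05 to 63.7 with a median of 26.8 in lineage A and 1.83 to 21.8 with a median of 7.73 in lineage B. Lineage A held 3.05 in generation 6 and 63.7 in generation 16, and in generation 16 it was above lineage C, which stood at 48.6. The call was lost without generation 2, 6, 8 or 10 of lineage C, without generation 4 of lineage A or without generation 6 of lineage B (adjusted p up to 0.0791). The table places an entry named T05C7.7 across the same bases, which differed by 1.302 ± 0.31 (adjusted p = 0.191), and the reference annotation places a gene of that name on chromosome IV, so that the source of these reads is uncertain.

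ndx-2, which encodes a Nudix hydrolase, lies on chromosome V from 2662964 to 2665003. It had 109 to 192 with a median of 134 in lineage C, 47.9 to 155 with a median of 83.4 in lineage A and 48.5 to 98.1 with a median of 86.3 in lineage B. The log2 difference was 0.68 ± 0.12 (adjusted p = 0.019 by limma). Lineage C was the highest of the lines in every generation shared. The call was lost without generation 8, 10 or 20 of lineage C (adjusted p up to 0.0843), and also with no block for generation (adjusted p = 0.159), without the 4 libraries with few silent genes (0.141) and without generation 2 (0.0585). Its neighbour angl-1, which overlaps it in the table, differed by 0.13 ± 0.06 (adjusted p = 0.348).

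The last 3 differences were small. maph-1.3, a homologue of microtubule-associated proteins, was higher by 0.38 ± 0.07 (adjusted p = 0.0241 by limma), with 671 to 976 in lineage C, 543 to 732 in lineage A and 476 to 764 in lineage B. The histone gene his-32 was higher by 0.36 ± 0.07 (adjusted p = 0.0483), with 615 to 2405 in lineage C, 501 to 1555 in lineage A and 508 to 1277 in lineage B. C01G6.9 was lower by -0.25 ± 0.05 (adjusted p = 0.0385), with 1014 to 1817 in lineage C, 1528 to 1976 in lineage A and 1570 to 2352 in lineage B. These calls did not hold up to leaving out single libraries. Of 28 libraries, 8 cost maph-1.3 its call, 19 cost C01G6.9 its call and 25 cost his-32 its call, with adjusted p up to 0.113 for maph-1.3, 0.1 for C01G6.9 and 0.214 for his-32.

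**Figure D2:**
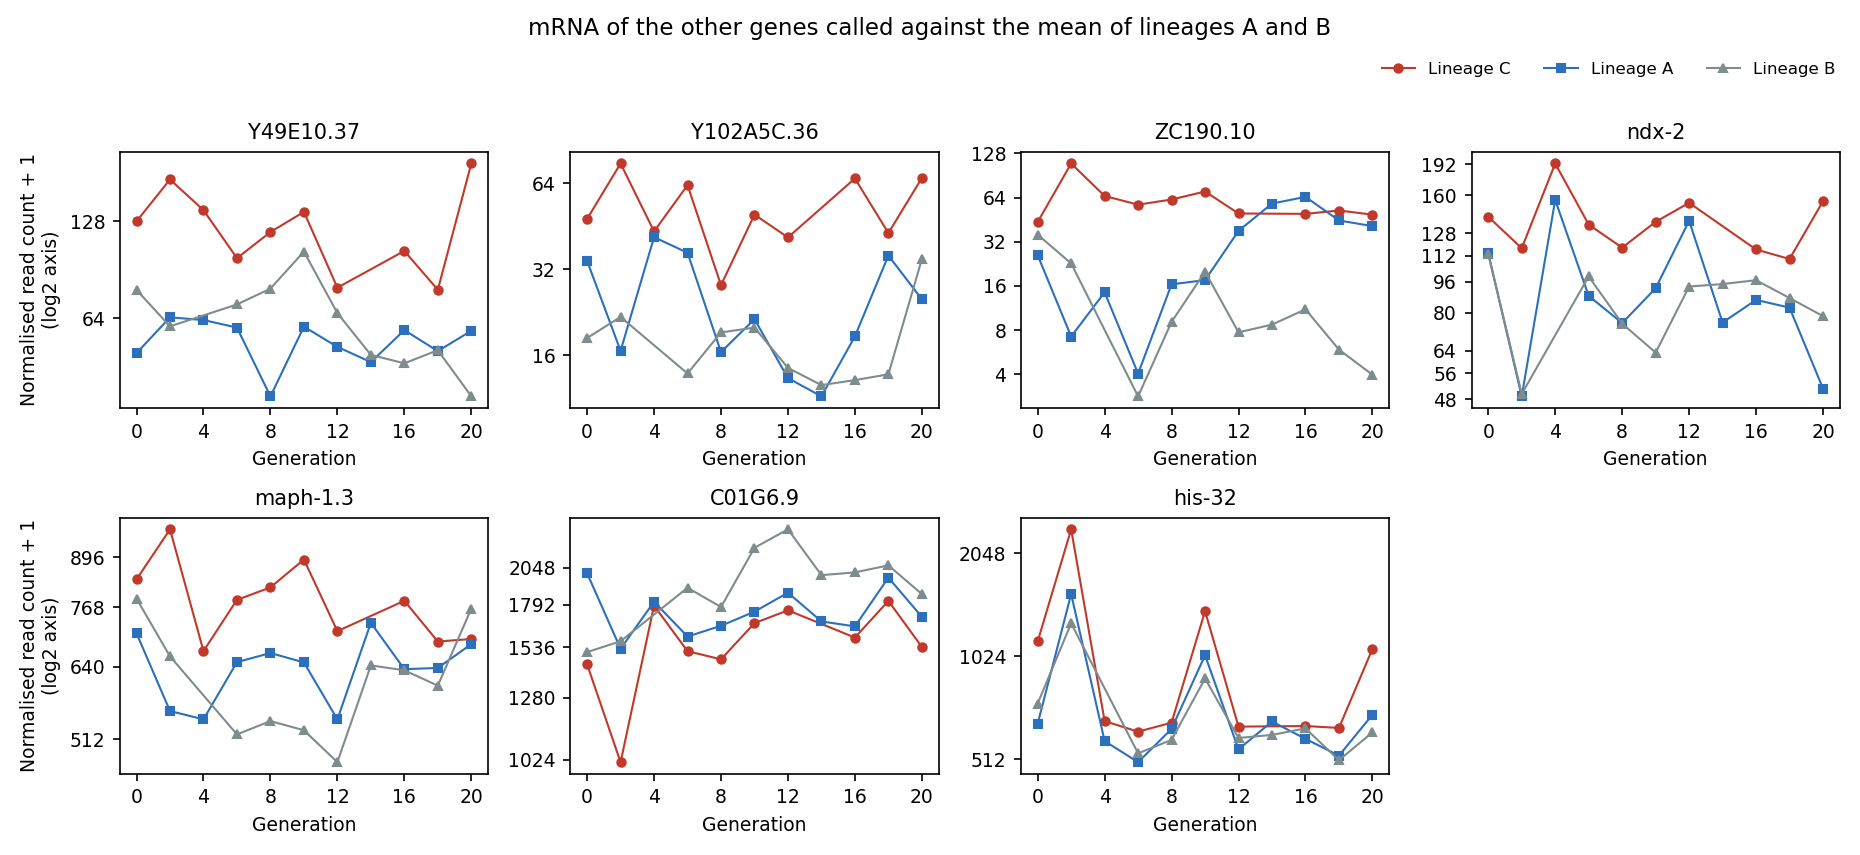
Normalised read count plus 1 (log2 axis) against generation for the other 7 positions that differed from the mean of lineages A and B, with 1 point for each library and 1 line for each lineage. ZC190.10 of lineage A climbs to 63.7 in generation 16, the level of lineage C, and his-32 is high in generation 2 in every lineage, with 2405 in lineage C, 1555 in lineage A and 1277 in lineage B.

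Generation 0 is described with 1 library for each lineage and hence no test. The generation 0 library of lineage C lay outside those of lineages A and B on the side of the later difference at 7 of the 10 positions, and over all genes tested this was so for 59.6%, a similar share. The 3 exceptions are the genes that differed from both lineages. For nyn-1 the generation 0 difference was 0.82, opposite in sign to the later one, for F07B7.2 it was -0.12 and for rnh-1.3 it was 0.13. For Y49E10.37, Y102A5C.36 and his-32 it was 1.03, 0.94 and 0.70.

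The 22G-RNAs of the same lines were then compared in the same way, because they are made on mRNA templates. Of 6175 genes with a mean normalised 22G-RNA count of at least 10, 550 differed in lineage C from the mean of lineages A and B (8.91%), 241 higher (3.9%) and 309 lower (5%), and 263 differed from each lineage (4.26%), 90 higher (1.46%) and 173 lower (2.8%). All 9 lineage C libraries lay above all those of lineages A and B for 4 genes (0.0648%) and below them for 33 (0.534%), 0.599% in all. The small RNA libraries of lineage C were shallower, with 577156 to 1158670 reads over genes and a median of 727215, against 106897 to 1504610 and a median of 1098294 in lineages A and B, and the part of this in the result was not tested. Lineage A gave 238 calls (3.85%) and lineage B 130 (2.11%) against the mean of the other lineages.

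At 6 of the 10 mRNA positions the 22G-RNAs could be tested, and all 6 had fewer 22G-RNAs in lineage C, 5 of them against each lineage. For rnh-1.3 the 22G-RNA count was 216 to 1019 with a median of 471 in lineage C, against 1243 to 3937 with a median of 1565 in lineages A and B, with no overlap. The difference was -1.70 ± 0.18 (adjusted p = 5.23e-07 by limma). For F07B7.2 it was 42.3 to 119.5 with a median of 84.5 in lineage C, against 126 to 774 with a median of 262 in lineages A and B, again with no overlap, and differed by -1.58 ± 0.23 (adjusted p = 3.47e-05). The entry named W09B7.2 has 22G-RNA values of its own, 51.1 to 127 in lineage C, against 135 to 782 in lineages A and B. That entry differed by -1.60 ± 0.23, also with no overlap. For Y102A5C.36 it was 36.9 to 178 in lineage C, against 126 to 1330 in lineages A and B, and differed by -1.98 ± 0.24. ndx-2 had the strongest loss of the 6, with 28.8 to 159 and a median of 34.5 in lineage C, against 268 to 687 and a median of 368 in lineages A and B, a difference of -2.85 ± 0.20 (adjusted p = 1.21e-09). Thus these 4 genes had more mRNA and fewer 22G-RNAs in lineage C.

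nyn-1 departed from that pattern, since its mRNA and its 22G-RNAs were both lower. Its 22G-RNA count was 6.71 to 18.8 with a median of 12.8 in lineage C, against 12.3 to 59.98 with a median of 39.8 in lineages A and B, and differed by -1.64 ± 0.22 (adjusted p = 1.25e-05 by limma). In generation 0 the counts of nyn-1 were 40.0 in lineage C, 30.1 in lineage A and 37.6 in lineage B. In generation 2 its 22G-RNA count was 12.8 in lineage C, against 41.0 in lineage A and 39.8 in lineage B. The mRNA of nyn-1 in lineage C was also lower by then, at 771 in generation 0 and 346 in generation 2. Its mRNA count in generation 2 was 483 in lineage A and 453 in lineage B. The 22G-RNAs of maph-1.3 differed by -0.43 ± 0.13 (adjusted p = 0.0353), and this call was lost without generation 4 of lineage A, the shallowest library with 106897 reads (adjusted p = 0.0811). The other 5 genes named here kept their call against each lineage without that library and without generation 14 of lineage A, the highest library for several of them.

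The 22G-RNA difference of ndx-2 was -0.34 in generation 0, -1.05 in generation 2 and -3.48 in generation 4, and that of rnh-1.3 was -0.30, -0.47 and -1.67 in the same generations. For Y102A5C.36 the 22G-RNA count of lineage C was 235 in generation 0, 178 in generation 2 and 52.7 in generation 4. From generation 4 on, the counts of these 3 genes were below every library of lineages A and B in every lineage C library. The mRNA of ndx-2 did not follow this course. It stood at 116 in lineage C, against 47.9 in lineage A and 48.5 in lineage B, in generation 2, and at 192 in lineage C, against 155 in lineage A, in generation 4.

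**Figure D3:**
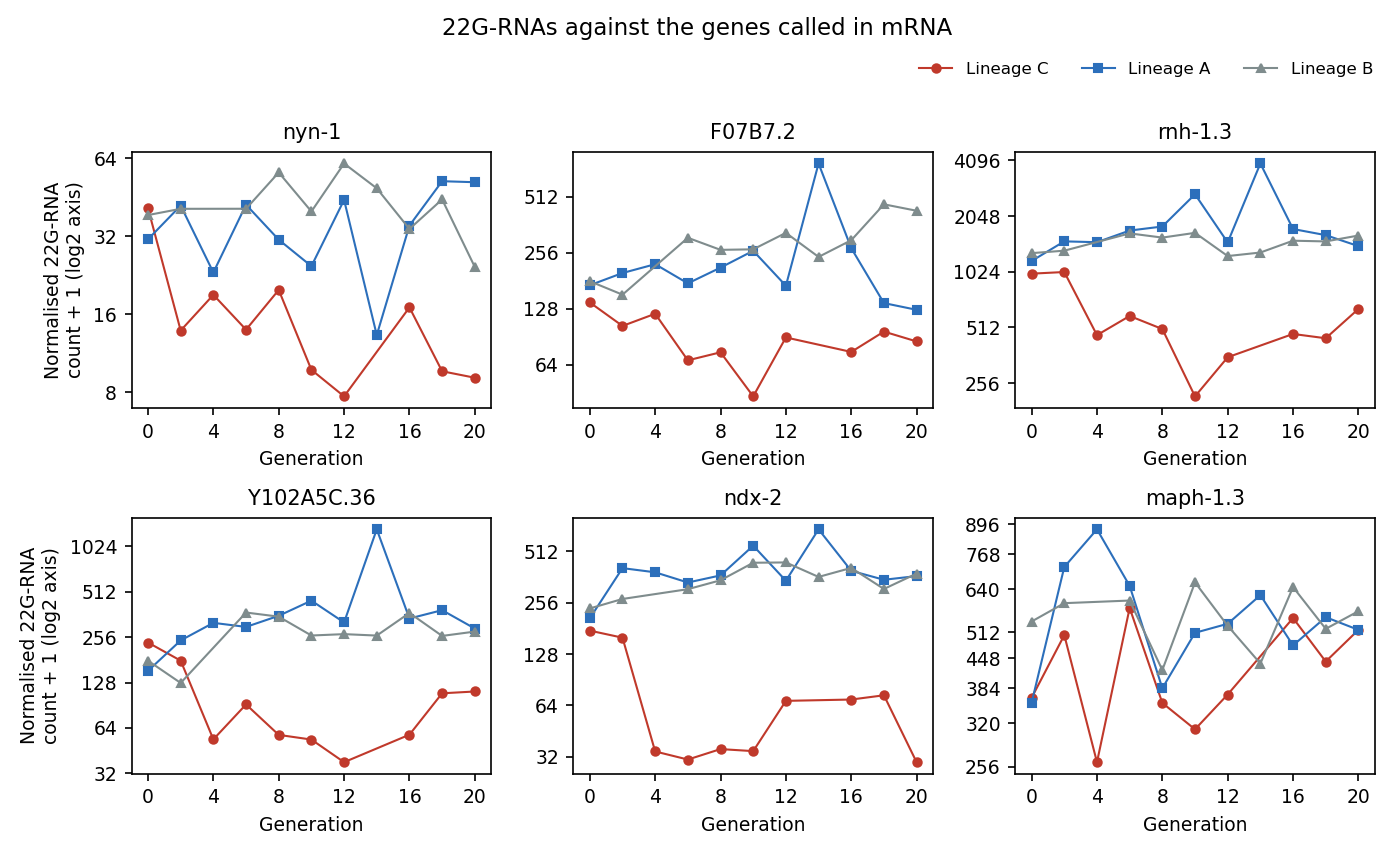
Normalised 22G-RNA count plus 1 (log2 axis) against generation for the 6 called genes with enough 22G-RNAs, with 1 point for each library and 1 line for each lineage. In lineage C the counts of ndx-2 stand at 158.5 in generation 2 and 33.4 in generation 4, and those of nyn-1 at 40.0 in generation 0 and 12.8 in generation 2.

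Few of the genes with altered 22G-RNAs in lineage C were called in mRNA. Among the genes tested in both data types, 134 entries had fewer 22G-RNAs in lineage C than in each other lineage. Their median mRNA difference was 0.08, against 0.02 over all 5541 genes tested in both, and 69.4% of them had a positive mRNA difference, against 57.1% of all. Of these 134, 5 entries were called higher in mRNA and 1 was called lower, against 6 and 1 of all 5541. At an unadjusted p under 0.05, 27 were higher (20.1%, against 11.4% of all) and 4 lower (2.99%, against 6.12% of all). The 84 genes with more 22G-RNAs in lineage C had a median mRNA difference of 0.04, 60.7% of them positive, and none was called in mRNA by limma. Of them 12 were higher (14.3%) and 6 lower (7.14%) at an unadjusted p under 0.05, shares near those of all genes tested in both.

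The genes with the largest 22G-RNA differences, chosen after their values were seen, were for the most part not called in mRNA, ndx-2 being the exception. B0001.5, a protein-coding gene on chromosome IV, had 494 22G-RNA counts in generation 2 of lineage C and 16.1 to 43.6 from generation 4 on, against 763 to 1115 in lineages A and B. The 22G-RNA difference was -4.28 ± 0.32 (adjusted p = 8.33e-09 by limma), whereas its mRNA stood at 2035 to 2504 in lineage C and 1716 to 2594 in lineages A and B. osm-3, which encodes a kinesin motor of sensory cilia, had 35.2 to 273 22G-RNA counts in lineage C, against 281 to 975.5 in lineages A and B, and 285 to 424 mRNA counts in lineage C, against 237 to 614 in lineages A and B. rimb-1, which encodes a RIM-binding protein of synapses, differed by -3.39 ± 0.43 in 22G-RNAs, and Y54E2A.4 by -3.30 ± 0.31, while C03D6.1 differed by -3.57 ± 0.39. The 22G-RNA counts of Y54E2A.4 and C03D6.1 overlapped with those of lineage A. For Y54E2A.4 they were 114 to 613 in lineage C, 264 to 2098 in lineage A and 1126 to 3694 in lineage B. In generation 0 they were 968 in lineage C, 1178.5 in lineage A and 1190.5 in lineage B. For C03D6.1 they were 1.29 to 7.27 in lineage C, 3.05 to 92.0 in lineage A and 44.1 to 116 in lineage B. In the other direction, ZC190.8 and ZC190.7, which are neighbours of ZC190.10 on chromosome V, had more 22G-RNAs in lineage C by 3.54 ± 0.62 and 3.18 ± 0.48. For ZC190.8 the counts were 13.7 to 72.1 in lineage C and 0 to 65.1 in lineages A and B. In lineage A they stood at 63.4 in generation 14 and 65.1 in generation 18. The mRNA of ZC190.8 was too low to be tested, at 1.94 to 10.6 in lineage C and 0 to 3.79 in lineages A and B. hlh-30, the worm homologue of the lysosome regulator TFEB, differed by 2.00 ± 0.50 in 22G-RNAs. Its 22G-RNA counts overlapped, with 68.7 to 491 in lineage C and 12.0 to 286 in lineages A and B. In 3 of 9 lineage C libraries the count was above every library of lineages A and B, and in generation 2 the difference was -1.06. The mRNA counts of hlh-30 were 11260 to 17240 in lineage C and 8134 to 14759 in lineages A and B.

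**Figure D4:**
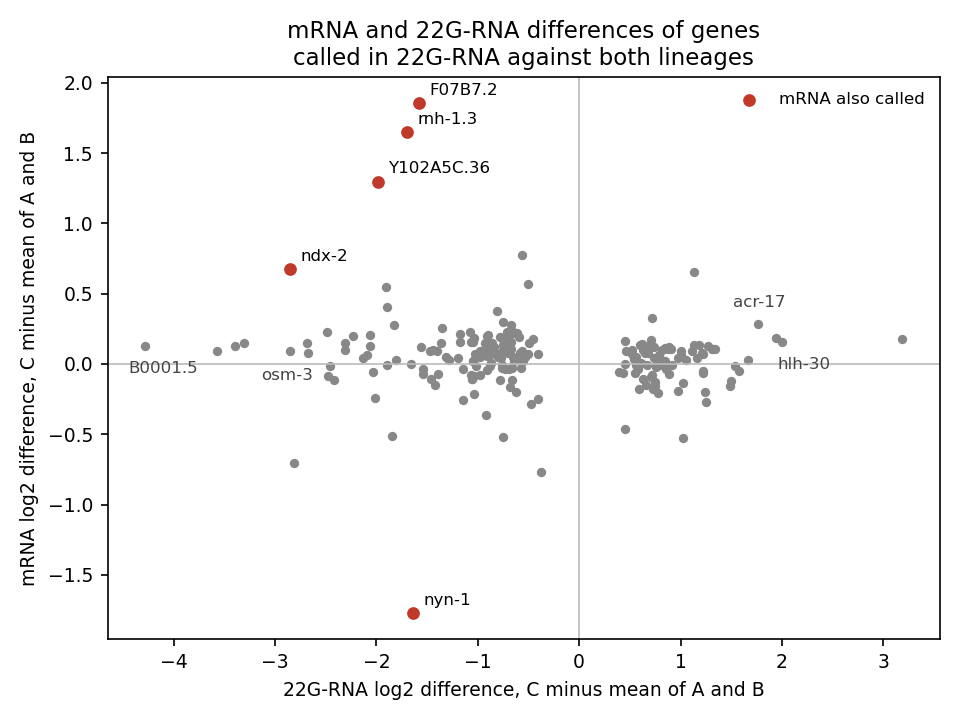
The mRNA log2 difference (vertical) against the 22G-RNA log2 difference (horizontal), both lineage C minus the mean of lineages A and B, for 217 genes whose 22G-RNAs differed in lineage C from each other lineage; the libraries of the axes come from the same RNA extractions, and the horizontal axis was used to choose the points. The 5 genes also called in mRNA are named in red, with nyn-1 at -1.77 below the line and F07B7.2 at 1.86 above it, and most other points lie near 0 on the vertical axis.

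The accessibility of regulatory elements in lineage C, measured by ATAC-seq over published promoters and enhancers, was compared last. Of 31506 elements none differed in lineage C from the mean of lineages A and B (0%, limma, adjusted p under 0.05), and 3716 had an unadjusted p under 0.05 (11.8%), 2470 higher (7.84%) and 1246 lower (3.95%). No other tool was run on these counts. Within 2000 bases of the 10 positions lie 16 elements, beside 7 of them, with log2 differences from -0.33 to 0.33 and a smallest adjusted p of 0.415. The ATAC-seq libraries held 3483604 to 6962639 reads over elements in lineage C and 2995631 to 12251653 in lineages A and B. They included generation 14 of lineage C, and lacked generation 8 of lineage C and generation 4 of lineage B.

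Gene groups were described by their counts and medians. Histone genes stood furthest from the rest. Most replication-dependent histone mRNAs end in a stem-loop in place of a poly(A) tail, so that poly(A) selection captures them in part only. Of 77 histone entries tested at 66 positions, 1 was called, the his-32 named above, but 37 positions were higher and 1 lower at an unadjusted p under 0.05. Over entries, 59.7% were higher at that threshold, against 7.22% of all genes. Histone genes of like sequence could share reads, so that the positions are not surely separate measurements. The median histone difference was 0.27, against 0.01 over all genes, and it was 0.22 without generation 2, 0.28 without the 4 libraries with few silent genes and 0.27 under TMM scaling of the recovered reads. With no block for generation it was 0.25, with 18 entries higher at that threshold, against 46 with the block (23.4%, where 2.86% of all genes were higher). his-24, a linker histone, had a mean count of 87407 in lineage C, 76559 in lineage A and 75317 in lineage B, and differed by 0.21 with an adjusted p of 0.255 by limma. The summed counts overlapped, from 257700 to 377700 in lineage C and from 246000 to 354000 in lineages A and B. In generation 0 they were 420100 in lineage C, 329000 in lineage A and 375800 in lineage B.

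The intracellular pathogen response genes, a set that worms induce on infection by microsporidia and viruses and that includes many pals genes, had the lowest median of all the groups, -0.20 over 38 tested genes. None was called, and 10 were lower (26.3%, against 7.16% of all genes) and 1 higher (2.63%, against 7.22%) at an unadjusted p under 0.05. pals-5, a widely used reporter of the response, averaged 6.53 counts in lineage C, 15.9 in lineage A and 10.7 in lineage B, and differed by -1.71 with an adjusted p of 0.189 by limma. cul-6, a cullin of the response, averaged 161 in lineage C, 206 in lineage A and 216 in lineage B (adjusted p = 0.303). The count rested on a few libraries. Without generation 2 the median was -0.07 and 3 genes were lower at that threshold (7.89%, against 3.62% of all genes). The number lower was also 3 without generation 2 or 10 of lineage C, 5 without generation 16 of lineage C, 6 without generation 10 of lineage B and 4 with edgeR.

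Of 35 Argonautes and small RNA amplification factors tested, none was called, 1 was higher (alg-2, a microRNA Argonaute, by 0.19) and 3 were lower (rde-11, rde-10 and nrde-4, by -0.20, -0.16 and -0.24) at an unadjusted p under 0.05, with a median of -0.07. The shares were 2.86% higher and 8.57% lower, against 7.22% and 7.16% of all genes. The largest differences of the list, those of dcr-1 (-0.67), rrf-1 (-0.63) and rde-1 (-0.52), did not pass that threshold. Their unadjusted p was 0.067, 0.072 and 0.056 by limma. In generation 0, with 1 library for each lineage, these genes differed by -1.81, -1.64 and -1.63. No gene of the list was higher by more than alg-2. Leaving out single libraries moved the number lower from 1 (without generation 2, 10 or 20 of lineage C or generation 2 of lineage B) to 9 (without generation 6 of lineage C). It was 8 with no block for generation, and without generation 2 the median was -0.01. Early zygotic fate genes had a median of 0.08 with 6 of 19 higher (31.6%, against 7.22% of all genes) and 0 lower at that threshold, led by tbx-37 and ceh-51, with differences of 0.33 each and adjusted p of 0.16 and 0.254. Their median without the 4 libraries with few silent genes was 0.09, with 3 of 19 higher. The number higher was also 3 without generation 12 or 20 of lineage C, without generation 12 of lineage B or with no block for generation. Late embryo cuticle genes had a median of 0.12, with 5 of 24 higher (20.8%) and 0 lower at that threshold. Of 20 neuron genes 1 was higher (5%) and 4 were lower (20%), with a median of -0.03. Late embryo muscle genes had 1 of 20 higher and 1 lower, and maternal regulators 2 of 26 higher and 0 lower. Lists of younger embryos (maternal, early zygotic) and of older ones (muscle, cuticle, neuron) thus did not part by direction.

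**Figure D5:**
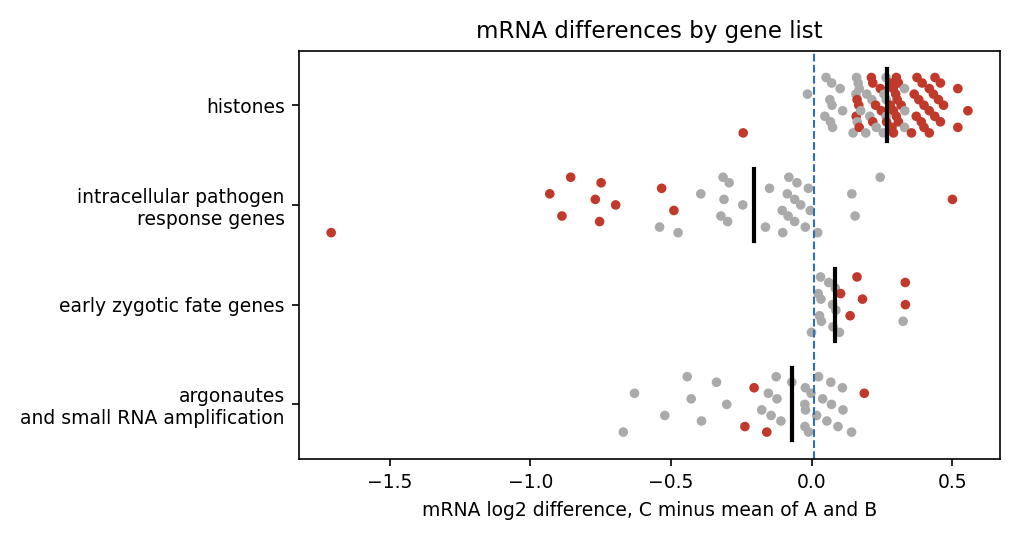
mRNA log2 difference, lineage C minus the mean of lineages A and B, for every tested gene of 4 lists (vertical position within a list is only spread); red points have an unadjusted p under 0.05, grey points do not, black bars are list medians and the dashed line is the median of all genes, 0.01. The histone median is 0.27 and the intracellular pathogen response median is -0.20.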

How the data were processed

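Per the study's methods, the authors aligned poly(A) RNA and ATAC-seq reads to WS252 (WBcel235) with Bowtie2, counted them over genes or published promoters and enhancers with BEDTools, and aligned 22G-RNAs with Bowtie without mismatches, summing those antisense to each gene. The deposited values are a normalized signal, counts scaled by the authors with DESeq2 size factors. Versions are not given in the sources used here. In the RNA and ATAC-seq tables a value of exactly 1 stands for no read and was set to 0, after which 100% of values were whole reads (within 0.001 read).

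Features with a mean of at least 10 over generations 2 to 20 were tested on log2(value + 1) with limma 3.58.1 in R 4.3.3 (robust, trended moderation, Benjamini-Hochberg adjustment), with lineage and a generation block. Deviations of same-generation libraries from their lineage means had a median correlation of 0.275 (26 pairs, 21 over 0.1), against -0.02 for other pairs. Named genes were those differing from both lineages, at most 12 each way. Alternatives were edgeR 4.0.16 (11 calls) and DESeq2 1.42.0 on recovered reads, other pseudocounts and filters, TMM scaling, no block, earlier or later generations alone, a stage covariate and left-out libraries. The fit was tested on simulated data. The members and gene lists were chosen with earlier results of these data known. Positions are 1-based.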

Additional observations from a re-analysis of the deposited data

Results flagged for a closer look

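The 10 called positions and the 3 lineages form 30 groups of 9 or 10 later libraries each. In 11 of the 30 groups 1 library stood far from the others. The groups share libraries, and the positions were called from these libraries, so no chance rate is set beside this count. In lineage C the libraries that stood apart were generation 2 of nyn-1 (346), rnh-1.3 (444.1), ZC190.10 (108), C01G6.9 (1014) and his-32 (2405). In lineage A they were generation 2 of rnh-1.3 (316) and his-32 (1555). In lineage B they were generation 2 of F07B7.2 (46.6), rnh-1.3 (280) and his-32 (1277) and generation 20 of Y102A5C.36 (33.7). Generation 2 accounts for 10 of these 11, in all 3 lineages, and without generation 2 the count of called entries was 10, of which 9 were among the 11.

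The generation 0 library of lineage C, which entered no test, lay beyond those of lineages A and B on the side of the later difference at 7 of the 10 positions, against 59.6% of all genes tested, a similar share. The log2 differences were 1.03 for Y49E10.37, 0.94 for Y102A5C.36, 0.70 for his-32, 0.52 for ZC190.10, 0.31 for ndx-2, 0.16 for maph-1.3 and -0.27 for C01G6.9. These rest on 1 library for each lineage and were not tested.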

How the results depend on the processing

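All 10 positions kept their direction in each recalculation of single genes. Against the mean of lineages A and B the 11 called entries became 42 with DESeq2 (all 11 among them), 6 with no replicate block, 5 in generations 2 to 10, 4 in generations 12 to 20, 4 with lineage A alone and 6 with lineage B alone. They became 6 without the 4 libraries with few silent genes, a setting chosen after seeing the data, as were those without generation 2, without single libraries of lineages A and B and without the 22G-RNA libraries named below. Leaving out single libraries gave 6 to 13 entries for lineage C, 8 to 12 for lineage A and 7 to 12 for lineage B. The fewest, 6, came without generation 8 or 10 of lineage C, and 7 came without generation 6 of lineage C or of lineage B. The entries that differed from each lineage numbered 4, or 8 with DESeq2, 0 in generations 2 to 10 and 2 in generations 12 to 20 (limma), and 4 to 5 with single libraries left out. With no replicate block for generation there were 524 calls in 22G-RNA, against 550, and 639 without generation 14 and 544 without generation 4 of lineage A. The cause of these shifts was not tested, although the parts of the series hold fewer libraries. Lineage C is 1 line, and more reads would not change that limit.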

Other observations

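Other gene groups held no called gene, and their counts at an unadjusted p under 0.05 are set beside 7.22% of all genes higher and 7.16% lower in lineage C. Of 218 nuclear hormone receptors 8 were higher (3.67%) and 25 lower (11.5%), with a median of -0.03, and 13 were lower without generation 2 of lineage C and 15 without generation 10 of lineage C. Of 60 cytochrome P450 genes 0 were higher and 7 lower (11.7%), with a median of -0.07, and 4 were lower without generation 2 of lineage C or without the 4 libraries with few silent genes. Of 63 UDP-glucuronosyltransferases 1 was higher and 8 lower (12.7%), with a median of -0.04, but without generation 2 the median was 0.01 and 0 were lower. Without single libraries 1 was lower without generation 2 and 4 without generation 10 of lineage C, and 5 without generation 2 or 10 of lineage B. Of 120 cuticle collagens 16 were higher (13.3%) and 1 lower, with a median of 0.10. The number of collagens higher was 36 without generation 6 of lineage C, 29 without generation 12 of lineage A, 26 and 27 without generations 6 and 16 of lineage B, and 8 (6.67%, against 5.76% of all genes) without the 4 libraries with few silent genes. The 122 neuropeptide and insulin genes had 0 in either direction. Of 72 MATH and BATH genes 6 were higher (8.33%) and 9 lower (12.5%), with a median of -0.06. Late embryo cuticle genes and neuron genes are given above. Among markers of adult material, summed major sperm protein counts were 504 to 820 in lineage C and 421 to 903 in lineages A and B. Most of that sum came from 1 entry, msp-51, with a mean of 496 in lineage C. The msp-51 entry spans chromosome IV from 5249392 to 5308861, and reads of any other gene in that span would be counted with it. The sum is therefore not surely a measure of sperm transcripts. Summed oocyte and eggshell gene counts were 9363 to 23570 in lineage C and 12990 to 24660 in lineages A and B.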
